A study of Mus musculus with 16 samples.

Results

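The core circadian clock genes were followed through rotator cuff muscle of 2 mouse strains, with and without surgery. The set was chosen by name, with earlier results of these data known. It holds 10 of the 11710 genes in the count table: Arntl, Clock, Per1, Per2, Per3, Cry1, Cry2, Nr1d1, Nr1d2 and Dbp. All 10 were found and all 10 passed the filter on low counts, with 151 to 9407 counts per sample.

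The clock is a feedback loop of transcription that runs over about a day in most cells, muscle fibers included. ARNTL (also called BMAL1) and CLOCK bind E-box sequences as a pair and switch on the Per and Cry genes, whose proteins then return to the nucleus and inhibit that pair. NR1D1 and NR1D2 (the REV-ERB nuclear receptors) repress Arntl and oppose the activator RORA at the same sites, and DBP carries the rhythm outward to genes with D-boxes. Because Arntl and the Per and Dbp transcripts peak at opposite times of day in many tissues, the level of any of these genes in a muscle depends on the hour at which it is taken. In skeletal muscle the clock is known for daily rhythms in glucose use and in genes of the fiber program.

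The study compared messenger RNA of rotator cuff muscle between C57BL/6J mice (BL6), a standard inbred strain, and MRL/MpJ mice (MRL), an inbred strain known for unusual tissue repair. In each strain 1 group had undergone a tenectomy, which removes the tendon's hold on the muscle, together with denervation, and the other was left unoperated. Each of the 4 groups held 4 samples, numbered 1 to 4 in the titles. The series description and the sample labels name different muscles of the cuff, infraspinatus in one and supraspinatus in the other. The labels name no transgene, age or sex for these groups, and neither the interval since the operation nor the hour of collection was used here. The labels do not say that the samples came from separate animals, so the p-values measure the spread between these samples only, and part of it may be technical.

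Promoter sequence is shown for 4 genes that were lower after surgery in at least 1 strain and that hold a clock-related motif near their start. The window runs from position -250 to position -21 relative to the transcription start in RefSeq (build GRCm38.p6). Bases transcribed from that start are thus left out, and matches are in capitals.

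Cry1, chr10:85185075-85185304, minus strand: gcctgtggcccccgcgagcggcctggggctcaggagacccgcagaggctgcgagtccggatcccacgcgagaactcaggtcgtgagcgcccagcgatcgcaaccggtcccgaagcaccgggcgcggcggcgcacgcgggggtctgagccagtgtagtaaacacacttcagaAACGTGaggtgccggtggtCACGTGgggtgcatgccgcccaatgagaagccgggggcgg
Cry2, chr2:92434090-92434319, minus strand: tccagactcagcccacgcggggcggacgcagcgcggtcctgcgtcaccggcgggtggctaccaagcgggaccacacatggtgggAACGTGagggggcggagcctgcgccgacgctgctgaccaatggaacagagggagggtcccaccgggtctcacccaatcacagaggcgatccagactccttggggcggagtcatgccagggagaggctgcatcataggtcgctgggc
Per3, chr4:151044686-151044915, minus strand: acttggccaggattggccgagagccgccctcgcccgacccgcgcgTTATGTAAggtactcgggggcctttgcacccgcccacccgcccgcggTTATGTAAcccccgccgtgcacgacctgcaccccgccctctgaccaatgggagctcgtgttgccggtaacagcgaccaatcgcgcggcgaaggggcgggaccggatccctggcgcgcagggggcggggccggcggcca
Nr1d1, chr11:98775398-98775627, minus strand: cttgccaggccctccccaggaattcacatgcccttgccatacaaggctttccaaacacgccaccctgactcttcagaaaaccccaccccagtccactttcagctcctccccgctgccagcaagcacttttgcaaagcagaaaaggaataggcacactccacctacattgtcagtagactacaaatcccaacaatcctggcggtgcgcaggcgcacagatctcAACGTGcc

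The motifs searched on both strands were the E-box CACGTG, the E-prime box CACGTT, the ROR element cores TAGGTCA and TGGGTCA, the D-boxes TTATGTAA and TTACGTAA and the CRE TGACGTCA. Cry1 held an E-box at positions -60 to -55 and an E-prime box, read as AACGTG on this strand, at -79 to -74. In Cry2 an E-prime box lay at -166 to -161, and in Nr1d1 another lay at -28 to -23. Per3 held the D-box TTATGTAA at -205 to -198 and again at -158 to -151. None of these matches overlapped another. Over 32851 promoters of this length, 5.35% held the E-box, 3.52% the E-prime box, 0.874% a D-box, 5.03% a ROR core and 1.28% the CRE. Among the 11767 promoters of tested genes these shares were 7.3%, 3.85%, 0.518%, 4.08% and 1.97%. The table held 13 promoters of 9 of the clock genes, of which 2 held the E-box, 3 the E-prime box and 1 a D-box, while no ROR core or CRE was in these windows. The other E-box lay at -166 to -161 in a promoter of Per1, which was not called with surgery in either strain. That Per1 window lies inside the annotated span of the gene, as a window of Clock does, so it may be transcribed from another start. Nr1d2, called lower in BL6, held none of these motifs, and neither did Arntl, Clock or Dbp. A match is a run of letters in this window and was not measured as a bound site.

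Levels are given as counts per 1000000 counts of a library (CPM), with library sizes scaled by the trimmed mean of M values (TMM). Per kilobase of exon, Nr1d1 led in unoperated BL6 with 62.7 ± 12.8 CPM per kb (SD, n = 4), followed by Dbp with 42.8 ± 12.5 and Nr1d2 with 26.8 ± 2.24. Arntl, with 2.33 ± 0.695 CPM per kb, and Clock, with 2.24 ± 0.314, were the lowest of the 10. Between them lay Per1 at 16.9 ± 8.43, Cry2 at 9.42 ± 2.37, Per3 at 7.12 ± 1.94, Per2 at 5.67 ± 1.45 and Cry1 at 4.48 ± 0.243 CPM per kb. In this order only Cry1 stood clear of the gene below it, with every sample above every Arntl value, and each of the other neighbours overlapped. Dbp led in the other 3 groups, with 37.8 ± 3.51 CPM per kb in unoperated MRL, 36.4 ± 16.8 in operated BL6 and 32.0 ± 5.93 in operated MRL, and in each it overlapped Nr1d1 below it. Arntl and Clock were the lowest in all 4 groups.

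**Figure D1:**
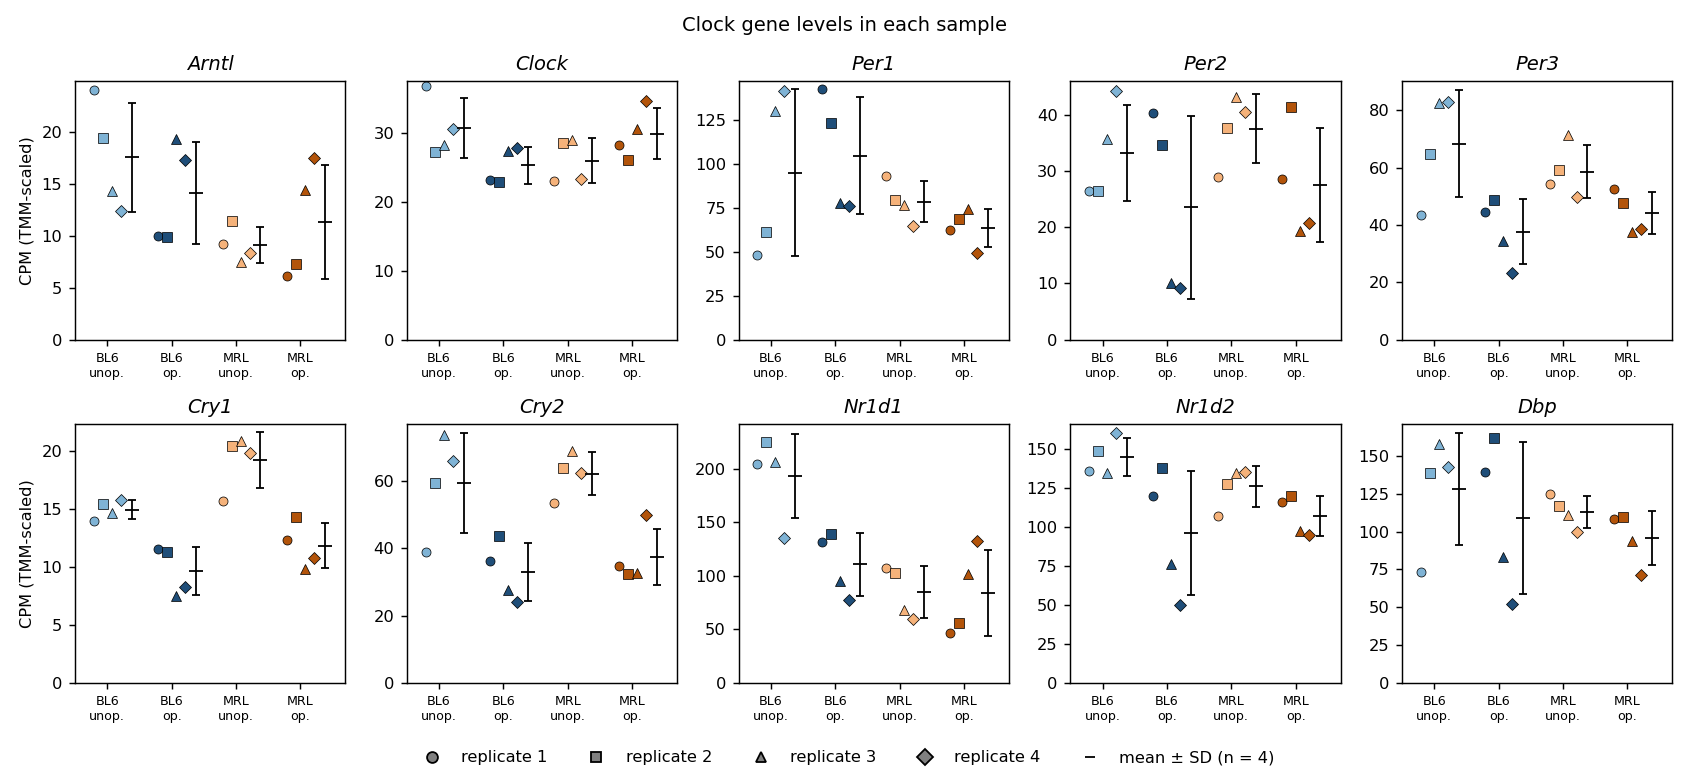
TMM-scaled CPM (vertical axes, from 0) of the 10 clock genes in each of the 16 samples, grouped by strain and surgery, with symbols for the replicate number and bars for the mean ± SD of 4 samples. Cry1 sat at 7.48 to 11.5 CPM in operated BL6 against 13.97 to 15.7 in unoperated BL6, and Nr1d1 in unoperated MRL sat at 60.1 to 107 against 136 to 225 in unoperated BL6.

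Surgery was followed by lower transcript levels of the 2 cryptochromes, which code for repressors of the ARNTL and CLOCK pair, in both strains. In BL6 Per3, Nr1d1 and Nr1d2 were lower as well, so that 5 of the 10 clock genes fell and none rose at an adjusted p under 0.05 (edgeR's quasi-likelihood test with Benjamini-Hochberg adjustment over all 11709 genes tested). In MRL 2 of the 10 fell and none rose. These counts stand against a wide response of the muscle, since 67.9% of all genes tested were called in BL6, 35.1% as higher and 32.8% as lower, and 45% in MRL, 22.3% as higher and 22.7% as lower. Counted in either direction, the clock genes were thus not called more often than genes in general in either strain. In MRL the share that fell, 2 of 10, was near the background. In BL6 5 of 10 fell beside 3843 of 11709 genes, and without operated sample 3 it was 3 of 10 beside 3612. The median log2 fold change of the 10 was -0.55 in BL6 and -0.27 in MRL, beside 0.04 and 0.01 over all genes tested.

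Cry1 lies on chromosome 10 at 85131700 to 85185064 and Cry2 on chromosome 2 at 92403646 to 92434043, both protein-coding genes on the minus strand of GRCm38 in the GENCODE M21 annotation. Cry1 in unoperated BL6 stood at 13.97, 15.5, 14.6 and 15.7 CPM in samples 1 to 4, and in operated BL6 at 11.5, 11.3, 7.48 and 8.30 CPM. In MRL Cry1 stood at 15.7, 20.5, 20.9 and 19.9 CPM without surgery and at 12.3, 14.3, 9.87 and 10.8 CPM with it. In both strains every operated sample lay below every unoperated sample. Cry1 was 1.55-fold lower in BL6 (log2 fold change -0.63, SE 0.15, adjusted p = 0.00199) and 1.63-fold lower in MRL (-0.70, SE 0.15, adjusted p = 0.00316).

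Cry2, the other cryptochrome, measured 38.8, 59.5, 73.7 and 66.1 CPM in unoperated BL6 and 36.2, 43.6, 27.7 and 24.2 CPM in operated BL6. In unoperated MRL it measured 53.6, 64.0, 69.0 and 62.5 CPM, and in operated MRL 34.7, 32.5, 32.8 and 50.0 CPM. The MRL groups did not overlap, whereas in BL6 the unoperated sample 1 lay within the operated range. Cry2 was 1.81-fold lower after surgery in BL6 (log2 fold change -0.86, SE 0.21, adjusted p = 0.00227) and 1.66-fold lower in MRL (-0.73, SE 0.21, adjusted p = 0.0120). Cry1 and Cry2 were called in both strains in all 25 alternative analyses. The opposite-strand transcript D930015M05Rik covers 4.67% of the exon bases of Cry2, and whether the counting used strand is not given in the sources used here.

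The 3 Period genes, whose proteins partner the cryptochromes, did not move as a group. Per3 stood at 43.5, 64.7, 82.7 and 82.8 CPM in unoperated BL6 and at 44.4, 48.8, 34.4 and 23.1 CPM in operated BL6. The ranges overlapped through unoperated sample 1, and Per3 was 1.82-fold lower (log2 fold change -0.86, SE 0.23, adjusted p = 0.00396), a call kept in all 25 alternatives. In MRL Per3 stood at 54.4, 59.0, 71.3 and 49.7 CPM without surgery and at 52.5, 47.8, 37.5 and 38.6 CPM with it. That difference of -0.41 (SE 0.23) did not pass (adjusted p = 0.148), while the authors' deposited table gives it a log2 fold change of -0.54 at a false discovery rate of 0.046.

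Per1, which also responds quickly to cAMP and glucocorticoid signals, spread widely within the BL6 groups. Its values were 47.9, 61.2, 130 and 142 CPM in unoperated BL6 and 143, 123, 77.6 and 75.9 CPM in operated BL6. The operated range lay almost wholly within the unoperated one, and the log2 difference was 0.14 (SE 0.30, adjusted p = 0.693). In MRL Per1 ran from 64.6 to 93.1 CPM without surgery and from 49.1 to 74.4 CPM with it (log2 difference -0.30, SE 0.30, adjusted p = 0.422).

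Per2, the period gene best known for its strong daily rhythm, measured 26.5, 26.5, 35.7 and 44.2 CPM in unoperated BL6 and 40.2, 34.6, 10.02 and 9.21 CPM in operated BL6. In unoperated MRL it measured 29.0, 37.6, 43.1 and 40.5 CPM, and in operated MRL 28.5, 41.3, 19.3 and 20.8 CPM. In both operated groups samples 3 and 4 were the low ones, and samples 1 and 2 lay within or near the unoperated range. The log2 difference was -0.50 (SE 0.40, adjusted p = 0.275) in BL6 and -0.45 (SE 0.40, adjusted p = 0.363) in MRL.

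Of the nuclear receptors that repress Arntl, Nr1d1 measured 205, 225, 207 and 136 CPM in unoperated BL6 and 132, 139, 94.8 and 77.7 CPM in operated BL6. In BL6 only unoperated sample 4 reached into the operated range, and Nr1d1 was 1.74-fold lower (log2 fold change -0.80, SE 0.31, adjusted p = 0.0302). The call was lost without unoperated sample 1, 2 or 3 (adjusted p = 0.0576, 0.0727 and 0.0605) and without operated sample 3 or 4 (0.0739 and 0.0858), and with total-count scaling (0.0552). In MRL Nr1d1 measured 107, 103, 68.4 and 60.1 CPM without surgery and 46.7, 55.7, 102 and 133 CPM with it, a log2 difference of -0.01 (SE 0.31, adjusted p = 0.984). The operated MRL samples spread to both sides of the unoperated ones. The opposite-strand gene Thra shares 263 bases, 8.55%, of the Nr1d1 exons, and its own log2 differences were -0.26 in BL6 (adjusted p = 0.254) and -0.31 in MRL (adjusted p = 0.199).

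Nr1d2, the close relative of Nr1d1, stood at 136, 149, 135 and 160 CPM in unoperated BL6 and at 120, 138, 76.2 and 50.2 CPM in operated BL6. Samples 3 and 4 were again the low operated ones, and Nr1d2 was 1.51-fold lower (log2 fold change -0.59, SE 0.23, adjusted p = 0.0292). That call was lost without unoperated sample 2 or 4 (adjusted p = 0.0547 and 0.0706), without operated sample 3 or 4 (0.0862 and 0.0551), and in a fit of the BL6 groups alone (0.0667). Without operated sample 4 the log2 fold change was -0.39. In MRL it ran from 107 to 135 CPM without surgery and from 94.6 to 120 CPM with it (log2 difference -0.24, SE 0.23, adjusted p = 0.397).

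The activators were not called in either strain. Arntl measured 24.0, 19.5, 14.3 and 12.4 CPM in unoperated BL6 and 10.01, 9.92, 19.3 and 17.3 CPM in operated BL6. In unoperated MRL it measured 9.20, 11.4, 7.48 and 8.32 CPM, and in operated MRL 6.13, 7.25, 14.4 and 17.5 CPM. Samples 3 and 4 were the high ones in both operated groups, the reverse of Per2. The log2 difference with surgery was -0.31 (SE 0.32, adjusted p = 0.400) in BL6 and 0.32 (SE 0.32, adjusted p = 0.432) in MRL.

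Clock varied less, from 27.3 to 36.9 CPM in unoperated BL6 and from 22.9 to 27.9 CPM in operated BL6. In MRL it ran from 23.0 to 29.0 CPM without surgery and from 26.1 to 34.7 CPM with it. The ranges overlapped in both strains. The log2 difference was -0.28 (SE 0.12, adjusted p = 0.0582) in BL6 and 0.20 (SE 0.12, adjusted p = 0.187) in MRL. The BL6 difference passed in 4 of 25 alternatives: without unoperated sample 2 (adjusted p = 0.0418), without operated sample 4 (0.0418), without operated MRL sample 4 (0.0476) and without the 13 mitochondrially encoded genes (0.0452).

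Dbp, the output factor, measured 73.6, 139, 158 and 143 CPM in unoperated BL6 and 139, 162, 83.3 and 52.0 CPM in operated BL6. In MRL it measured 125, 117, 111 and 99.8 CPM without surgery and 108, 110, 94.0 and 71.5 CPM with it. All of these ranges overlapped, and the log2 difference was -0.23 (SE 0.29, adjusted p = 0.490) in BL6 and -0.24 (SE 0.29, adjusted p = 0.514) in MRL. Sphk2, on the opposite strand, shares 539 bases, 18.0%, of the Dbp exons, and its log2 differences were -0.11 (adjusted p = 0.363) and -0.15 (adjusted p = 0.250).

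**Figure D2:**
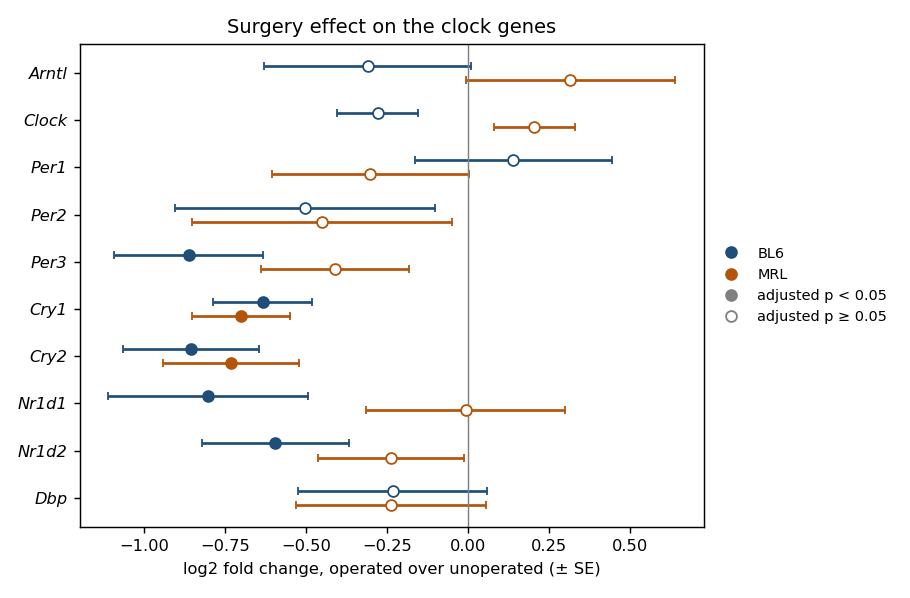
Log2 fold change of operated over unoperated samples (horizontal axis) for each clock gene in BL6 and MRL, with bars of 1 SE and filled points where edgeR's adjusted p was under 0.05. Cry1 and Cry2 are filled in both strains, and Arntl and Clock lie below 0 in BL6 and above 0 in MRL without passing the test in either.

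Whether surgery acted differently in the strains was tested by the interaction, the surgery effect in MRL minus that in BL6. None of the 10 clock genes was called by edgeR, which called 29 of all genes tested (0.248%). DESeq2, which called 250 genes in all, also called 0 of the 10. Only Clock had an unadjusted p under 0.05, with an interaction of 0.48 on the log2 scale (SE 0.18, unadjusted p = 0.0148, adjusted p = 0.232). Nr1d1 had the largest estimate, 0.79 (SE 0.43, adjusted p = 0.372), and Arntl followed with 0.63 (SE 0.46, adjusted p = 0.485). Cry1, at -0.07 (SE 0.21, adjusted p = 0.886), and Cry2, at 0.13 (SE 0.29, adjusted p = 0.843), had estimates smaller than their errors. A difference between strains was therefore not shown for Per3, Nr1d1 or Nr1d2, which were called in BL6 but not in MRL.

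Among unoperated samples, Nr1d1 differed between the strains. Clock gene levels depend on the hour of collection, which was not used here, so its part in this difference was not tested. Nr1d1 in unoperated MRL, at 60.1 to 107 CPM, lay wholly below unoperated BL6, at 136 to 225 CPM, and was 2.28-fold lower (log2 fold change -1.19, SE 0.31, adjusted p = 0.0214). It was the 1 clock gene of 10 called there, where 10.4% of all genes were called, and the call was lost without unoperated BL6 sample 2 or 3 (adjusted p = 0.0608 and 0.0561) and without unoperated MRL sample 3 or 4 (0.0632 and 0.0772). Arntl also lay wholly lower in unoperated MRL, 7.48 to 11.4 CPM against 12.4 to 24.0 CPM, with a log2 difference of -0.94 (SE 0.32) that did not pass (adjusted p = 0.0776). For Arntl the difference passed with DESeq2 (adjusted p = 0.0320), in a fit of the unoperated groups alone (0.0113) and without operated MRL sample 4 (0.0479). Cry1 was at 15.7 to 20.9 CPM in MRL against 13.97 to 15.7 CPM in BL6 (log2 difference 0.36, SE 0.15, adjusted p = 0.148), and it passed with total-count scaling (0.0235) and in the fit of these groups alone (0.0283).

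Between operated samples of the strains none of the 10 clock genes was called by edgeR, which called 12.9% of all genes, or by DESeq2, which called 1932 genes in all. Per1 was the 1 gene with an unadjusted p under 0.05 (log2 difference -0.72, SE 0.30, unadjusted p = 0.0317, adjusted p = 0.141), with 49.1 to 74.4 CPM in MRL below 75.9 to 143 CPM in BL6. Nr1d1, the gene called between unoperated strains, had a log2 difference of -0.39 (SE 0.31, adjusted p = 0.445) among operated samples. In the authors' deposited table the false discovery rate was under 0.05 for 5 of the 10 clock genes after surgery in BL6, for 3 in MRL, for 1 between unoperated strains and for 0 between operated strains.

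Within groups, 7 of the other 9 clock genes varied with or against Arntl when all samples were pooled. After subtraction of group means in log2 CPM, Per2 ran against Arntl over the 16 samples with Pearson's r = -0.767 (permutation p = 0.00503, 0.0226 after Benjamini-Hochberg adjustment over 9 pairs) and Spearman's rho = -0.800. Dbp did so with r = -0.690 (permutation p = 0.00790, adjusted 0.0237) and rho = -0.771, and Clock ran with Arntl at r = 0.660 (permutation p = 0.0140, adjusted 0.0252) and rho = 0.559. Pooled over the groups, deviations of Arntl thus ran with those of its partner Clock and against those of Per2 and Dbp. Unoperated MRL went the other way for Dbp, since samples 1 and 2 had the highest Arntl, 9.20 and 11.4 CPM, and also the highest Dbp, 125 and 117 CPM. Within that group alone, r with Arntl was 0.463 for Dbp, 0.328 for Per1 and 0.122 for Clock. For Per2 it was -0.392, for Nr1d2 -0.315, for Per3 -0.277 and for Cry1 -0.105, so the pooled relations were weak or reversed there. Per3 (r = -0.748), Cry1 (-0.711), Nr1d2 (-0.622) and Per1 (-0.616) also ran against Arntl, with adjusted permutation p from 0.0226 to 0.0252. Cry2 (r = -0.301, adjusted permutation p = 0.339) and Nr1d1 (r = 0.518, adjusted permutation p = 0.170) did not pass. Relations of this size were not particular to the clock genes. Ranked by r with Arntl among 11162 genes, Clock came at 358, Per1 at 10680 and Per2, the most opposite of the 9, at 11120. The share of all genes that would pass the same test was not computed. The operated groups differed for Nr1d1: samples 3 and 4, high in Arntl, had the lower Nr1d1 in BL6 (94.8 and 77.7 CPM) and the higher Nr1d1 in MRL (102 and 133 CPM). For Cry2 they were the lower samples in BL6 (27.7 and 24.2 CPM), whereas in MRL sample 4 was the highest (50.0 CPM). Without the 2 samples farthest from the median of Arntl, operated MRL samples 1 and 4, r was -0.864 for Per2, -0.697 for Dbp, 0.621 for Clock, -0.775 for Per3, -0.769 for Cry1, -0.681 for Per1, -0.661 for Nr1d2, -0.708 for Cry2 and 0.224 for Nr1d1. Of these Nr1d2 then missed the threshold (adjusted permutation p = 0.0539) and Cry2 passed it (0.0481). Without unoperated BL6 sample 1 only Per2 and Per3 passed, and Clock, Per1, Cry1, Nr1d2 and Dbp each had an adjusted permutation p of 0.0532. Without operated MRL sample 4 Per1 missed it (0.0502) and Cry2 passed it (0.0280).

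**Figure D3:**
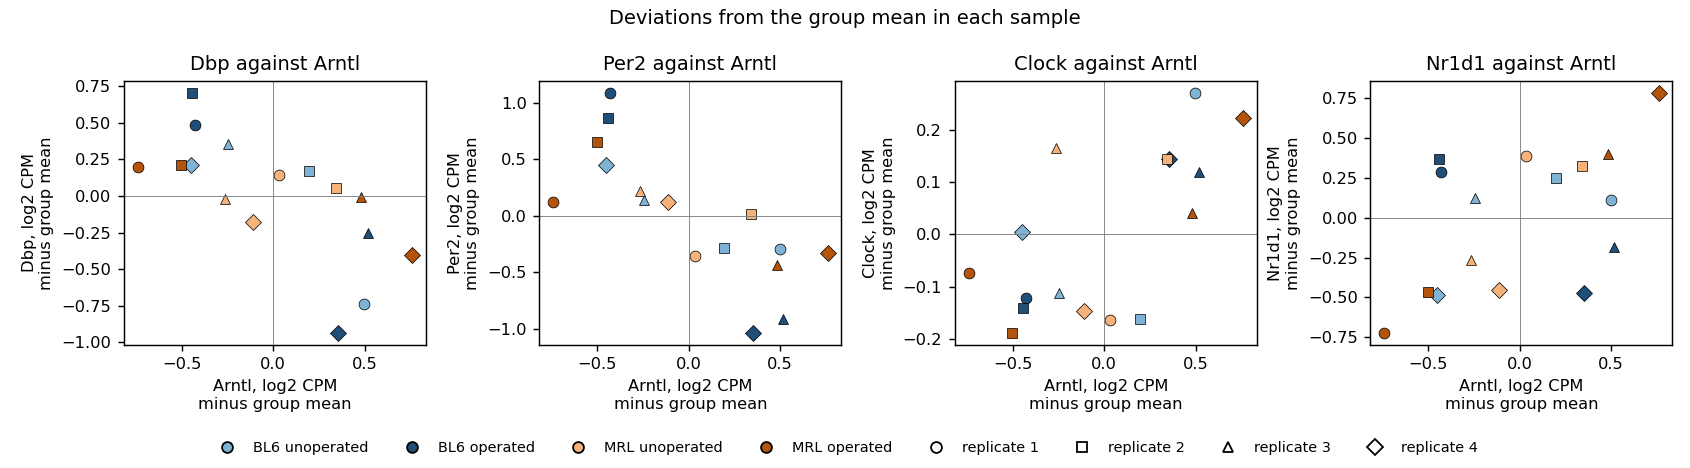
Deviation of each sample from its group mean in log2 CPM for Dbp, Per2, Clock and Nr1d1 (vertical axes) against that of Arntl (horizontal axes), 16 samples with colours for the group and symbols for the replicate number. Dbp and Per2 slope down (r = -0.690 and -0.767), Clock slopes up (r = 0.660), and operated samples 3 and 4 of both strains lie on the side of high Arntl.

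The ratio of Dbp to Arntl within a library shows the same spread free of library scaling. It was 3.07, 7.12, 11.01 and 11.5 in unoperated BL6 and 13.9, 16.3, 4.31 and 3.01 in operated BL6. In unoperated MRL it was 13.6, 10.2, 14.8 and 12.0, and in operated MRL 17.7, 15.1, 6.54 and 4.10. The ratio varied little in unoperated MRL, and in each of the other groups some samples had a ratio near 3 to 7 and others above 11. The labels give no batch for these samples, and equal numbers are not stated to mark samples handled together.

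Measures of library composition were set beside this spread. CPM values are divided by the TMM factor, so a negative r with that factor is partly built in. The summed markers share the same scaling, which builds in part of a positive r with a clock gene. Relations of these measures to unscaled values were not computed. Over the 16 samples the within-group deviation of Arntl followed the log2 TMM factor (r = 0.656, rho = 0.797, permutation p = 0.00838, adjusted 0.0396 over 22 relations), the summed fibroblast markers (r = 0.680, rho = 0.791, permutation p = 0.0108, adjusted 0.0396) and the summed macrophage markers (r = 0.566, rho = 0.674, permutation p = 0.0140, adjusted 0.0440). Dbp ran against the TMM factor (r = -0.889, rho = -0.871, permutation p = 0.00056, adjusted 0.0123) and the fibroblast markers (r = -0.839, rho = -0.797, permutation p = 0.00313, adjusted 0.0230), and with the myofiber markers (r = 0.846, rho = 0.821, permutation p = 0.00278, adjusted 0.0230). It also ran against the macrophage markers (r = -0.718, rho = -0.659, permutation p = 0.00931, adjusted 0.0396), a relation that rests on 2 samples, since r was -0.274 without the 2 samples farthest from the median of Dbp, unoperated BL6 sample 1 and operated BL6 sample 4. Without the 2 samples farthest in Arntl the 3 relations of Arntl had r of 0.670, 0.670 and 0.578. Without the 2 farthest in Dbp, r of Dbp was -0.817 with the TMM factor, -0.541 with the fibroblast markers and 0.722 with the myofiber markers. The part of cell makeup in the clock genes' spread was not tested, and in bulk tissue fewer cells of a type and less RNA per cell cannot be told apart.

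Over the same deviations, the genes most like Arntl among 11162 ranked by Pearson's r were Osr1 (0.899), H2-Q10 (0.858), Zmat3 (0.858) and Unc119b (0.856), and the clock activator Npas2 came at rank 7 (0.852). Other clock genes ranked lower, with Clock at 358, Nr1d1 at 1264 and Cry2 at 8497. Toward the opposite end were Per1 at 10680, Nr1d2 at 10709, Dbp at 10980, Cry1 at 11036, Per3 at 11097 and Per2 at 11120. Hlf, a relative of Dbp, came further still at 11153 (-0.841), whereas Rora, Nfil3, Bhlhe40 and Bhlhe41 ranked from 4096 to 7677. The most opposite to Arntl were Maco1 (-0.913), Dus2 (-0.881), Nsmaf (-0.881) and Dusp7 (-0.878). For Dbp the most alike were Ascc1 (0.962), Hsd17b10 (0.934), Psmd4 (0.930) and Psmc3 (0.928), with Per3 at rank 13 (0.899), and the most opposite were Enpp2 (-0.922), Pcsk6 (-0.912), Slc35b4 (-0.912) and Tmem158 (-0.911). With Dbp, Nr1d2 ranked 229, Per2 347, Per1 388, Cry2 1125, Cry1 1364, Nr1d1 4541, Arntl 10292 and Clock 10505. These values describe 16 libraries that share groups of 4 and carry no test.

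A list of other clock-pathway genes held the nuclear receptor gene Rora, the relatives of Dbp, further repressors, and the kinases and ligases that set the stability of clock proteins. This list and those below were chosen with earlier results of these data known, so their counts are not an independent test. Of 33 listed, 31 were measured, and 2 rose and 18 fell with surgery in BL6 while 2 rose and 16 fell in MRL, with median log2 fold changes of -0.52 and -0.38. Over all genes tested 35.1% rose and 32.8% fell in BL6, and 22.3% rose and 22.7% fell in MRL. Rora, whose product activates Arntl where NR1D1 represses it, fell in both strains. Rora went from 75.9 ± 11.9 CPM (SD, n = 4) to 24.1 ± 6.04 in BL6 (log2 fold change -1.65, adjusted p = 3.17e-05) and from 78.7 ± 15.4 to 36.4 ± 11.5 in MRL (-1.11, adjusted p = 0.00208). Every operated sample lay below every unoperated sample of its strain.

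Tef and Hlf, the relatives of Dbp that bind the same D-boxes, fell in both strains, with no overlap between groups. Tef went from 401 ± 67.6 to 189 ± 48.6 CPM (SD, n = 4) in BL6 (log2 fold change -1.09, adjusted p = 0.000136) and from 300.1 ± 33.5 to 171 ± 22.5 CPM in MRL (-0.81, adjusted p = 0.00367). Hlf changed by -1.38 (adjusted p = 0.000721) and -1.02 (adjusted p = 0.0108). The E-box repressors Bhlhe40 and Bhlhe41 also fell: Bhlhe40 by 1.35 in BL6 (adjusted p = 0.000330) and by 0.84 in MRL (adjusted p = 0.0148), and Bhlhe41 by 1.21 (adjusted p = 0.000196) and by 1.20 (adjusted p = 0.00125) on the log2 scale. Nfil3, the repressor at D-boxes, had log2 differences of 0.12 (adjusted p = 0.688) and -0.17 (adjusted p = 0.603), and Ciart, a repressor of the ARNTL and CLOCK pair, -0.24 (adjusted p = 0.677) and -0.86 (adjusted p = 0.175). In MRL every operated Ciart value, 4.44 to 5.79 CPM, lay below every unoperated one, 8.56 to 10.1 CPM, while the BL6 groups overlapped. Prkaa2, the catalytic subunit of AMP-activated kinase that prevails in muscle, fell by 1.97 in BL6 (adjusted p = 7.80e-05) and by 1.18 in MRL (adjusted p = 0.00661).

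The genes of this list that rose were Npas2, which can stand in for Clock as partner of ARNTL, in BL6, Timeless, which has a main role in DNA replication, in both strains, and Prkaa1, the other catalytic subunit of AMP-activated kinase, in MRL. Prkaa1 rose by 0.29 on the log2 scale in MRL (adjusted p = 0.0167) and had a log2 difference of 0.05 in BL6 (adjusted p = 0.626). Npas2 measured 1.47, 0.574, 0.291 and 0.162 CPM in unoperated BL6 and 1.29, 0.852, 4.51 and 8.33 CPM in operated BL6. In unoperated MRL it measured 0.611, 0.358, 0.581 and 0.596 CPM, and in operated MRL 0.406, 0.832, 3.76 and 2.42 CPM. The high values were those of operated samples 3 and 4 in both strains, the same samples that were high in Arntl, and samples 1 and 2 overlapped or neared the unoperated range. Npas2 rose in BL6 (log2 fold change 2.60, SE 0.79, adjusted p = 0.00877), and in MRL its difference of 1.80 (SE 0.80) did not pass (adjusted p = 0.0758). Timeless rose from 4.92 ± 0.710 to 13.8 ± 3.31 CPM in BL6 (log2 fold change 1.49, adjusted p = 0.000131) and from 2.88 ± 0.599 to 7.11 ± 2.61 CPM in MRL (1.30, adjusted p = 0.00195).

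**Figure D4:**
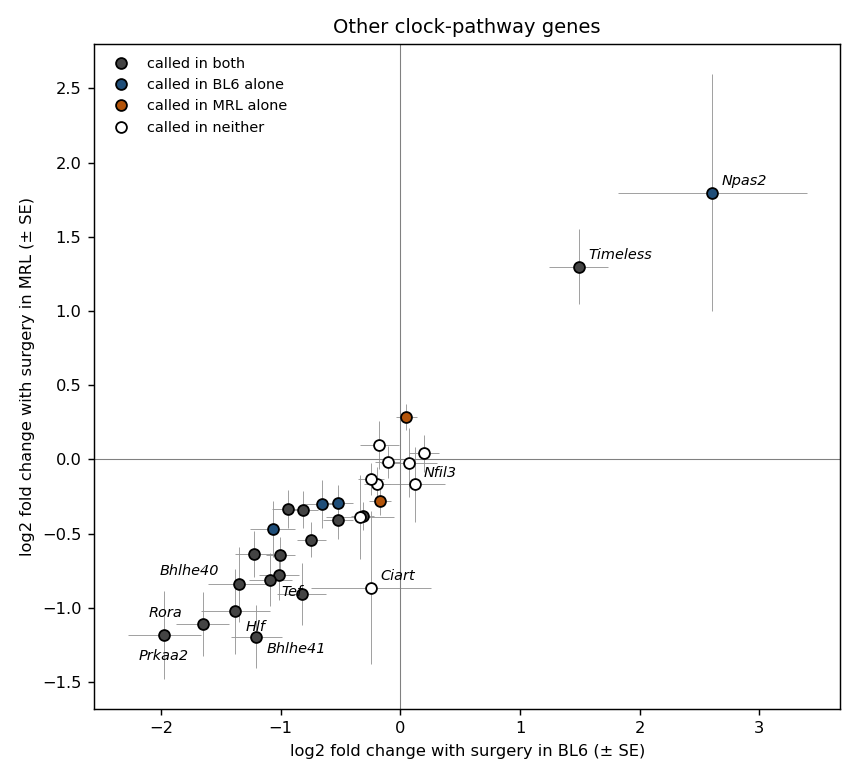
Log2 fold change with surgery in BL6 (horizontal axis) and in MRL (vertical axis) of the 31 measured genes of the wider clock pathway, with bars of 1 SE and fill by whether edgeR's adjusted p was under 0.05 in both strains, 1 strain or neither. Most called genes lie in the lower left, among them Prkaa2, Rora and Hlf, while Timeless and Npas2 lie in the upper right.

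Of 20 genes listed as outputs of the muscle clock, 19 were measured, and 5 of the list also stand in the wider pathway list. Another 3 are shared with the glucocorticoid-response list below, and the list also holds a satellite cell marker, so these counts are not independent. In BL6 2 rose and 9 fell, and in MRL none rose and 10 fell, with median log2 fold changes of -0.59 and -0.71, where 32.8% of all genes fell in BL6 and 22.7% in MRL. Mylk4, a kinase gene, fell by 3.03 in BL6 (adjusted p = 0.000567) and by 2.47 in MRL (adjusted p = 0.00550). Pfkfb3, which codes for a regulator of glycolysis, fell by 2.74 (adjusted p = 4.81e-05) and by 1.07 (adjusted p = 0.0291), and Fbxo32, the ubiquitin ligase gene of muscle atrophy, fell by 1.35 (adjusted p = 0.00456) and by 1.27 (adjusted p = 0.0126). Hk2, the hexokinase of muscle, fell by 1.44 in MRL (adjusted p = 0.00136) and had a log2 difference of -0.59 in BL6 (adjusted p = 0.0510).

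Genes that respond to glucocorticoids and to cAMP, signals that also act on Per1, were counted as well. Of 10 glucocorticoid-response genes 1, Ddit4, rose (log2 fold change 1.49) and 6 fell in BL6 and 4 fell in MRL, beside 32.8% and 22.7% of all genes that fell. The largest fall was that of Klf9, with 141.0 ± 19.8 CPM (SD, n = 4) against 31.7 ± 14.7 after surgery in BL6 (log2 fold change -2.15) and 101 ± 18.3 against 37.0 ± 21.1 in MRL (-1.45). Of 10 immediate-early and cAMP-response genes 7 rose in BL6 and 4 in MRL with none called lower, beside 35.1% and 22.3% of all genes that rose, led by Fosb (2.25) and Atf3 (2.21) in BL6 and Fos (1.83) and Nr4a2 (1.56) in MRL. Per1 itself was not called in either strain.

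Total counts ran from 24323862 to 43552964 per sample, and in BL6 every operated total was below every unoperated one. Mitochondrially encoded genes took 10.97% to 14.2% of counts in unoperated samples, 17.4% to 23.8% in operated BL6 and 11.8% to 24.9% in operated MRL. The lowest operated shares were those of sample 4 in each strain. These were also the libraries farthest from the rest of their groups, with a chi-square per degree of freedom over all genes of 157 to 404 for operated BL6 sample 4 and 233 to 301 for operated MRL sample 4, against 14.7 to 140.0 for all other pairs within a group. Cry1 and Cry2 were called in both strains, and Per3 in BL6, with each of them left out in turn. The muscle markers were present throughout, with a summed myofiber level of 121000 to 159600 CPM in unoperated BL6, 112500 to 125200 in unoperated MRL, 50480 to 152100 in operated BL6 and 72230 to 98450 in operated MRL. With surgery 3 of 7 myofiber markers fell in BL6 and 2 of 7 in MRL, while all 5 measured adipocyte markers rose in both strains, 5 and 4 of 5 Schwann markers rose, and 3 of 5 macrophage, 2 of 5 fibroblast and 2 of 2 measured tendon markers rose in BL6 with none called in MRL. Endothelial markers rose as well, 3 of 4 in BL6 and 4 of 4 in MRL, and of 3 measured satellite cell markers 3 fell in BL6 and 2 in MRL. Over all genes tested 35.1% rose and 32.8% fell in BL6, and 22.3% rose and 22.7% fell in MRL. The myofiber counts in both strains and the fibroblast count in BL6 were not far from these shares. Summed adipocyte markers went from 221 to 307 CPM in unoperated BL6 up to 1294 to 2221 in operated BL6. These shifts accompanied the falls in Cry1, Cry2, Per3, Nr1d1 and Nr1d2, and their part in those falls was not tested.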

How the data were processed

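RNA sequencing of mouse rotator cuff muscle gave whole-number counts per gene in 16 samples, 4 in each of 4 groups taken from the labels. Per the submitters' processing notes, FastQC, STAR, edgeR and the mm10 build were used. Their roles and versions, the counting program and its use of strand are not given in the sources used here. The deposited table of counts is not normalized. A deposited table by the authors gives log2 fold changes, p-values and false discovery rates for 4 comparisons of groups. All columns of the count table were mapped to samples, so 0 were left unmapped.

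The counts were analysed in R 4.3.3 with edgeR 4.0.16. The filterByExpr function at a minimum count of 10 kept 11709 of 11710 genes, TMM factors scaled the libraries, and the quasi-likelihood fit gave each group its own mean and used all 16 samples. The 5 comparisons came from this fit, with Benjamini-Hochberg adjustment over all genes tested and a threshold of 0.05. A prior count of 2 was added for log2 CPM. Correlations used deviations from group means and 100000 two-sided permutations of samples within groups. Fewer permutations were drawn where samples were left out or the log2 CPM was computed otherwise, so those permutation p-values are less exact. Alternatives, whose effect the closing section gives, were RLE factors, total counts, other filters, DESeq2 1.42.0, limma-voom (limma 3.58.1), fits of the compared groups only, a replicate block and leaving out each sample. The code was tested on simulated data. Counts of replicates never agreed within sampling noise.

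The clock genes and gene lists were chosen with earlier results of these data known. Named genes are all 10 clock genes, from each list at most the 4 called genes with the largest absolute log2 fold change in a comparison, Npas2, Rora, Tef, Hlf, Nfil3, Bhlhe40, Bhlhe41 and Ciart, and the 4 genes most and 4 least like Arntl and Dbp. A gene that this rule selects is not reported here. Thra, Sphk2 and D930015M05Rik are named for their exon overlap in the GENCODE M21 annotation, Per3 and Npas2 for their ranks, and Prkaa1 outside the rule, after its values were seen. Exon lengths are from that annotation, and promoters, found for 9 of the 10 genes and not for Per2, from RefSeq. Counts of 3 correspond to 0.0718 to 0.122 CPM, which covers counting error only.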

Additional observations from a re-analysis of the deposited data

Results flagged for a closer look

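Cry2 in operated MRL sample 4, at 49.99 CPM, stood apart from the other 3 samples of its group, at 32.5, 32.8 and 34.7 CPM. It was the 1 value of this kind among 40 combinations of a clock gene and a group, and chance alone flags about 1 group in 20. The value still lay below every unoperated MRL sample, the lowest of which was 53.6 CPM.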

How the results depend on the processing

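Over 25 alternatives (24 for the interaction), the number of clock genes called for surgery in MRL stayed at 2, and those called in the interaction and between operated strains stayed at 0. For surgery in BL6, 3 to 6 were called when a sample was left out, with 3 without operated BL6 sample 3, and 4 to 6 under the others. Between unoperated strains the 1 call became 0 to 2 when a sample was left out, 2 with total counts, 2 with DESeq2 and 3 in a fit of those groups only. The 7 genes that varied with Arntl became 2 to 7 when a sample was left out, and 5 with total-count log2 CPM, where Per1 (adjusted permutation p = 0.0737) and Cry1 (0.392) were lost. Of 1240 values of single genes under an alternative, 1182 kept direction and side of the threshold, 15 lost it, 9 gained it and 34 turned direction, all 34 in genes not called. Turned were Nr1d1 for surgery in MRL with total counts (0.0717) and the replicate block (0.0423), and Dbp in the interaction without mitochondrial genes (0.0128), with limma-voom (0.0303) and with the replicate block (0.0652). With a sample left out, log2 values ran from -0.0848 to 0.396 for Per1 with surgery in BL6 and from -0.31 to 0.19 for Nr1d1 with surgery in MRL. In the interaction they ran from -0.23 to 0.25 for Dbp, from -0.21 to 0.44 for Per2, from -0.173 to 0.0285 for Cry1 and from -0.0450 to 0.290 for Cry2. Between unoperated strains Cry2 ran from -0.10 to 0.18, and between operated strains Dbp ran from -0.418 to 0.0682, Per2 from -0.0422 to 0.621 and Nr1d2 from -0.0563 to 0.381. The cause of these changes was not tested. Samples of equal number did not always deviate together (correlations from -0.474 to 0.453), so the numbers are not taken as pairs, and with the replicate block 5, 2, 0, 1 and 0 clock genes were called in the 5 comparisons. The lowest count of a clock gene in a sample was 151, and that of Npas2 was 6.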
